A study of Danio rerio with 12 samples.

Results

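The genes described here encode the proteins of the cytosolic ribosome. They were chosen from the count table by symbol: the symbol begins with rpl, rps or rplp followed by a digit, the gene is annotated as protein-coding, and the ribosomal S6 kinases (symbols starting rps6k) are left out. The rule found 82 genes among the 32520 in the table, 34 with a small subunit symbol (rps) and 48 with a large subunit or stalk symbol (rpl and rplp). Of these, 70 had enough counts to be tested, 30 rps and 40 rpl or rplp. A pair of members, rps19bp1 and rpl7l1, are not structural subunits by symbol: rps19bp1 is named for binding RPS19, and rpl7l1 for its likeness to rpl7.

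RNA was sequenced from whole wild-type zebrafish embryos of the AB strain at 3 days of age, in 4 groups of 3 libraries. A solvent group received 0.1% DMSO (dimethyl sulfoxide). The other 3 received testosterone at 30 µM, either alone, together with calindol at 5 µM, or together with EGCG at 100 µM (epigallocatechin gallate, from tea). The sample titles give no DMSO content for these 3 groups. Below, the calindol and EGCG groups and libraries are always those that also received testosterone. Exposure ran from 2 to 4 hours after fertilization until collection, and each group has 1 library from each of clutches 1, 2 and 4. The study used calindol and EGCG as antagonists of the membrane receptor GPRC6A. No group received calindol or EGCG without testosterone, so the effect of either alone cannot be told apart from its effect on embryos exposed to testosterone. How many embryos were pooled in a library is not stated in the sources used here.

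A ribosome is built from a small subunit, which reads the messenger RNA, and a large subunit, which joins the amino acids. Each contains ribosomal RNA and many proteins that are made in the cytoplasm, carried to the nucleolus and assembled there in matched amounts. In vertebrates the messenger RNAs of these proteins begin with a 5′ terminal oligopyrimidine (TOP) tract, through which mTOR signalling and the RNA-binding protein Larp1 control their translation and stability. Loss of single ribosomal proteins, RPS19 among them, causes Diamond-Blackfan anaemia in humans.

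Library totals ranged from 8181295 to 22510680 counts, and the factors that scaled them further ranged from 0.940 to 1.03. The 10 embryonic tissues for which marker genes were listed were all represented, and 32 of 41 marker genes had counts in all 12 libraries. The muscle markers ckma and mylpfa had only 8 and 5 counts in all, although actc1b, myhz2 and tnnt3b were tested. Low counts were not confined to muscle, and 9 of the 41 marker genes had under 100 counts in all. The lens marker crygm2d7 and the intestine marker fabp2 had 0, the pancreas marker ctrb1 1 and the erythroid marker alas2 25. In whole embryos, fewer cells of a type and less RNA per cell cannot be told apart.

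Ribosomal protein genes held a larger share of the counts in embryos given testosterone with calindol than in any other group. In the DMSO libraries of clutches 1, 2 and 4 the 82 genes took 5.26%, 5.02% and 5.17% of all counts, a mean of 5.15% ± 0.121 (SD, n = 3). With testosterone they took 5.31%, 5.63% and 5.51%, a mean of 5.48% ± 0.163 (SD, n = 3). With testosterone and calindol they took 6.76%, 6.40% and 6.51%, a mean of 6.56% ± 0.188 (SD, n = 3). All 3 calindol libraries lay above all 9 others. With testosterone and EGCG the share was 5.56%, 5.34% and 6.01%, a mean of 5.64% ± 0.344 (SD, n = 3). The EGCG libraries overlapped those of testosterone alone, and the lowest library of each of these groups was above the highest DMSO library.

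Relative to DMSO, the mean share was 1.06 times as high with testosterone, 1.27 times with testosterone and calindol, and 1.09 times with testosterone and EGCG. Within clutches 1, 2 and 4 the ratio of the calindol to the DMSO library was 1.29, 1.27 and 1.26. The ratio of the testosterone to the DMSO library was 1.01, 1.12 and 1.06, and that of the EGCG to the DMSO library 1.06, 1.06 and 1.16. For these unscaled shares the calindol ratio therefore varied little between clutches, while the other ratios varied more relative to their distance from 1. On the scaled totals, used for CPM and the tests below, calindol library 1 stood apart. Its family sum was 72033 CPM, beside 63829 and 64903 CPM in calindol libraries 2 and 4. In DMSO libraries 1, 2 and 4 the sum was 52757, 50372 and 51207 CPM. Calindol library 1 also had the lowest scaling factor, 0.940. The small subunit genes rose from 1.98% ± 0.0387 of the counts in DMSO to 2.54% ± 0.0794 with calindol, and the large subunit genes from 3.17% ± 0.0830 to 4.02% ± 0.109 (SD, n = 3). Both subunits therefore moved by nearly the same ratio, 1.28 and 1.27. Counting error alone gave each share a 95% Wilson interval of at most ± 0.0157 percentage points, which is far below the spread between libraries.

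**Figure D1:**
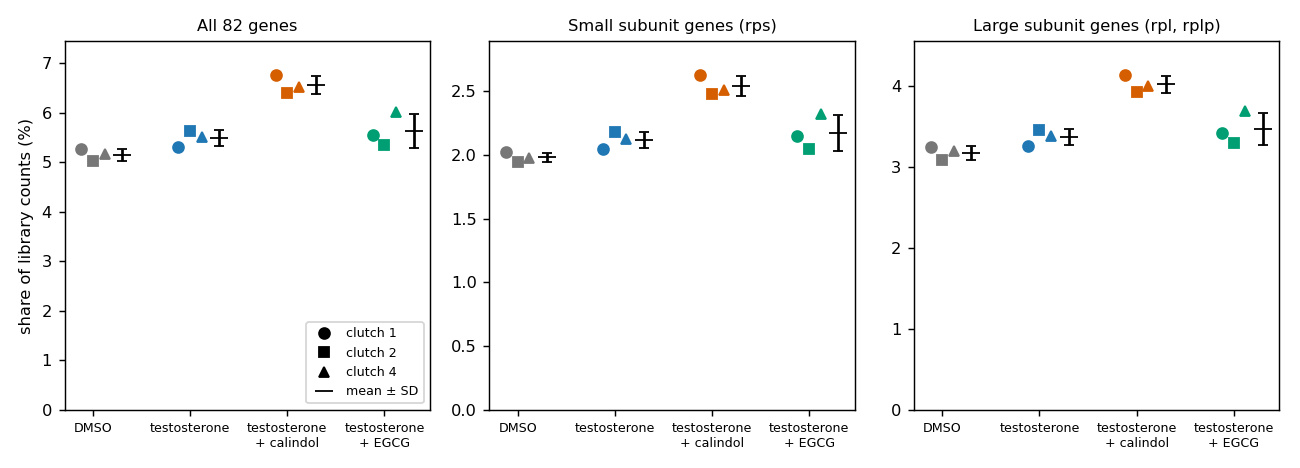
Share of each library's counts (percent, from 0) held by all 82 genes, by the small subunit genes and by the large subunit genes in the 4 groups; symbols mark the clutch, and bars the mean ± SD of 3 libraries. The calindol libraries, at 6.40% to 6.76% in the left panel, lie above all others in each panel.

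A few members had almost no counts, so the shares cover only what the table lists. Of the 12 members that were not tested, rpl12, rpl9 and rpl32 had 0 counts in all 12 libraries together. A further 5 had 1 to 3 counts: rpl39, rps3a, rpl10, rps13 and rps27a. The remaining 4, rpl36a, rpl26, rpl30 and rps15, had 17, 30, 34 and 77 counts. These genes encode core proteins that ribosomes need. Among coding genes within 2 rows of the 8 members with at most 3 counts, 18 of 23 (78.3%) had at most 3 counts themselves. Near the 4 members with 17 to 77 counts it was 4 of 16 (25%), and 3 of these 4 lay near rpl36a. Beside the tested members it was 8 of 217 (3.69%), and among all protein-coding genes 13.5%. Why low counts fell in neighbouring rows was not tested. Values near 0 for these members are given as listed, and are not read as a lack of expression. The symbol rpl37 belongs to 2 identifiers: ENSDARG00000034291 carries the counts of an abundant gene, and the annotation used for names calls ENSDARG00000076360 COA1. The latter was tested and stays a member by its symbol, with mean levels of 6.70 CPM in DMSO and 9.34 CPM with calindol. It is among the members called higher from DMSO to calindol below.

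In DMSO, 62 of the 82 members reached 100 CPM (a count divided by the scaled size of its library), 14 reached 1000 CPM, and the median member had 604 CPM. The genes with the most counts were rps2, rplp0 and rpl3. rps2 encodes a small subunit protein near the entry of the messenger RNA, rplp0 the base of the stalk to which elongation factors bind, and rpl3 a core protein close to the site of peptide bond formation. Counts grow with transcript length as well as with the number of transcripts, and the table gives no lengths, so members are not ranked by expression. The 10 members with the most counts held 32.7% of the family's counts in all.

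Testosterone with calindol, compared with DMSO, gave the broadest change: nearly the whole family was higher, by a similar ratio. Of the 70 tested members 62 were higher (88.6%) and 0 lower at an adjusted p under 0.05, where 11.5% of all tested genes were higher and 15.9% lower (edgeR quasi-likelihood test, two-sided, Benjamini-Hochberg adjustment over 20237 genes). At an unadjusted p under 0.05 the same test also gave 62 higher and 0 lower, and DESeq2 gave 62 and 0 after adjustment. DESeq2 was run on the 79 members with any count. Here and below, the share of all genes was not counted at the unadjusted threshold or with DESeq2. Those counts therefore have no background beside them. The median log2 fold change was 0.40, a ratio of 1.32, beside 0.01 over all tested genes. Of the 70 members, 57 lay within 0.1 of that median on the log2 scale, and the SD over members was 0.116. A narrow spread was not particular to calindol. Around their own medians it was 62 members (SD 0.106) from DMSO to testosterone and 64 (SD 0.121) from DMSO to EGCG. The share of all genes within 0.1 was not counted. For 62 members all 3 calindol libraries lay above all 3 DMSO libraries, which was true of 20.3% of all tested genes.

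The small and large subunit genes had the same median change. Among rps genes 27 of 30 were higher with a median log2 fold change of 0.40, and among rpl and rplp genes 35 of 40 with a median of 0.40. rps6 encodes the small subunit protein that the S6 kinases phosphorylate. Its level was 1330, 1263 and 1279 CPM in the DMSO libraries of clutches 1, 2 and 4, and 1365, 1445 and 1328 CPM with testosterone. Its level was 1799, 1659 and 1671 CPM with testosterone and calindol, and 1318, 1260 and 1473 CPM with testosterone and EGCG. The calindol libraries were the 3 highest, and the other groups overlapped with each other. The log2 fold change from DMSO to calindol was 0.41 ± 0.070 (SE), with an adjusted p of 0.000582.

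rpl5a and rpl11, which encode proteins that join the large subunit together with the 5S ribosomal RNA, were among those that rose. rpl11 was at 755, 748 and 766 CPM in DMSO and at 1144, 949 and 986 CPM with testosterone and calindol. Every calindol library was above every DMSO library, and the log2 difference was 0.44 ± 0.083 (SE; adjusted p = 0.0012). rpl5a, the more heavily counted of the zebrafish rpl5 copies, rose by 0.42 ± 0.077 (SE; adjusted p = 0.000899). rps19, the gene most often affected in Diamond-Blackfan anaemia in humans, was higher by 0.39 ± 0.079 (SE; adjusted p = 0.00214). rps2 and rpl3, 2 of the 3 members with the most counts, rose less than the family median, by 0.30 ± 0.077 (adjusted p = 0.00879) and 0.24 ± 0.072 (adjusted p = 0.0197). The call for rpl3 was lost without DMSO library 2 (adjusted p = 0.0518), DMSO library 4 (0.0816) or calindol library 1 (0.0657).

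The 5 members with the largest rise among those that passed were rps27l, rpl19, rps23, rps28 and rplp2. rps27l encodes a variant of the small subunit protein Rps27. Its level was 31.4, 30.1 and 33.7 CPM in DMSO and 57.8, 49.4 and 44.7 CPM with testosterone and calindol. With testosterone alone it was 31.1, 37.1 and 42.3 CPM, and with testosterone and EGCG 33.3, 34.9 and 45.5 CPM. The calindol libraries lay above all DMSO and testosterone libraries, while the highest EGCG library passed the lowest calindol library. Its log2 fold change from DMSO was 0.67 ± 0.133 (SE; adjusted p = 0.00166). rpl19, a large subunit protein that reaches across to the small subunit, was at 1105, 1063 and 1068 CPM in DMSO and at 1660, 1479 and 1492 CPM with calindol. These groups did not overlap, and the log2 fold change was 0.52 ± 0.070 (SE; adjusted p = 0.000103). The values for rps23, which lies at the decoding site, rps28 and rplp2 were 0.49 each, with adjusted p from 0.000143 to 0.000745.

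The stalk genes of the large subunit had unequal values. The stalk proteins rplp1 and rplp2, which recruit elongation factors, were higher by 0.42 ± 0.071 (SE; adjusted p = 0.000525) and 0.49 ± 0.086 (SE; adjusted p = 0.000745). Their anchor rplp0 was at 2466, 2253 and 2379 CPM in DMSO and at 2839, 2397 and 2529 CPM with calindol, and these ranges overlapped. Its log2 fold change was 0.13 ± 0.074 (SE) and did not pass the test (adjusted p = 0.218), although it had more counts than all members except rps2. The difference between rplp0 and the other stalk genes was not tested.

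Besides rplp0, the members that did not pass were rps8b, rps12, rpl21, rpl34, rpl13a, rpl7l1 and rps19bp1. rps8b, the copy of rps8a with few counts, was at 9.68, 6.95 and 9.04 CPM in DMSO and at 8.68, 8.86 and 7.99 CPM with calindol. Its log2 fold change was -0.01 ± 0.167 (SE; adjusted p = 0.978), whereas rps8a had 0.38 ± 0.075 (SE; adjusted p = 0.00157). Of the members that are not subunits, rps19bp1 had 0.20 ± 0.095 (SE; adjusted p = 0.139) and rpl7l1 0.12 ± 0.086 (SE; adjusted p = 0.342). rps12 (0.03 ± 0.209, SE) had few counts. rpl21 (0.01 ± 0.453, SE) was at 70.2, 73.0 and 88.2 CPM in DMSO and at 88.1, 73.4 and 71.8 CPM with calindol. Testosterone library 1, outside this comparison, stood apart for rpl21, at 13.8 CPM beside 108 and 123 CPM in testosterone libraries 2 and 4. It enters the SE through the spread estimated over all 4 groups. The same library stood apart for rpl13a (0.30 ± 0.532, SE), at 0.16 CPM beside 10.7 and 7.38 CPM. For rpl34, a core large subunit protein, 1 library decided the value: calindol library 1 was at 1300 CPM and libraries 2 and 4 at 768 and 742 CPM, beside 877, 766 and 741 CPM in DMSO.

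**Figure D2:**
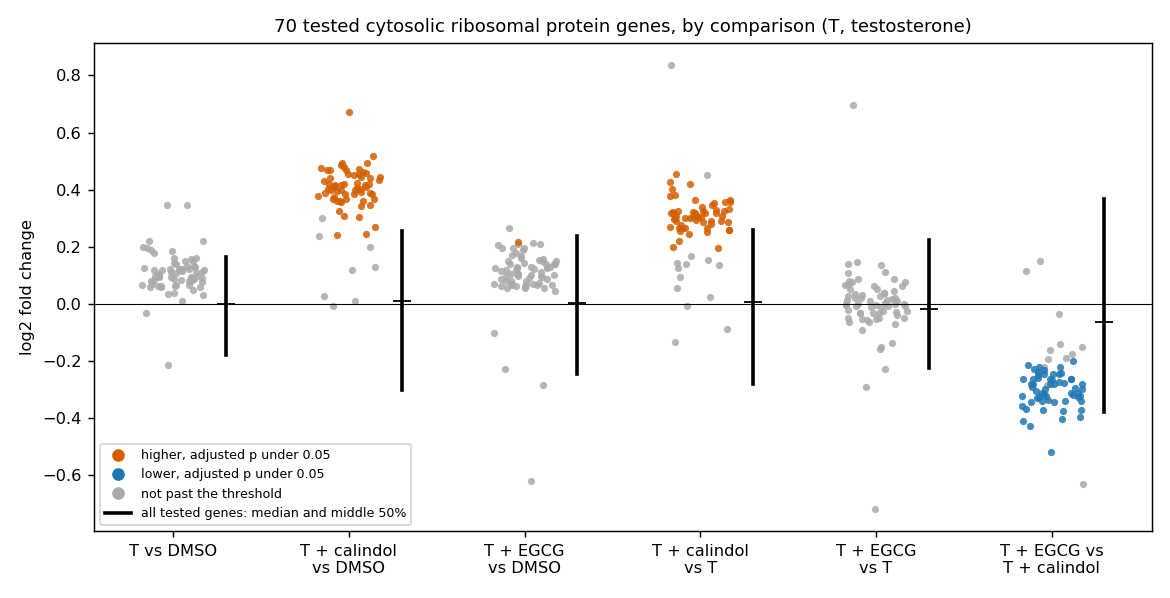
Log2 fold change of each of the 70 tested genes (points) in the 6 comparisons, where T is testosterone; orange points were higher and blue points lower at an adjusted p under 0.05, and the black bars give the median and the middle 50% of all tested genes. In the calindol against DMSO column 62 points are orange, and in the EGCG against calindol column 58 are blue.

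Set against testosterone alone, testosterone with calindol again gave higher levels across the family. Of the 70 members 56 were higher and 0 lower, where 11% of all tested genes were higher and 14.8% lower. At an unadjusted p under 0.05 edgeR gave 59 higher and 0 lower, and DESeq2 gave 56 and 0. The median log2 fold change was 0.30, a ratio of 1.23, beside 0.01 over all tested genes. The 5 with the largest rise among those that passed were rps27l (0.45), rpl31 (0.43), rpl29 (0.42), rplp2 (0.40) and rps29 (0.38). rpl29 was at 264, 302 and 277 CPM with testosterone and at 404, 373 and 351 CPM with calindol. These groups did not overlap, and the adjusted p was 0.000974. This comparison and the one with DMSO share the calindol libraries, so their values are not independent.

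Members with a well known role also rose. From testosterone to calindol the log2 fold change was 0.31 ± 0.069 for rps6, 0.36 ± 0.083 for rpl11, 0.33 ± 0.076 for rpl5a and 0.30 ± 0.079 for rps19 (SE; adjusted p from 0.00456 to 0.0115). rps2 was near the threshold with 0.22 ± 0.077 (SE; adjusted p = 0.0473), and with clutch as a block its adjusted p was 0.0729. It also lost the call without DMSO library 1, 2 or 4, testosterone library 1 or 4, or calindol library 1 or 4 (adjusted p from 0.0504 to 0.144). A fit of only the 6 libraries compared lost the rps2 call as well (0.0839). rps27l lost its call without testosterone library 1 (adjusted p = 0.076) or calindol library 1 (0.0842). rplp0 (0.10), rpl3 (0.12), rps19bp1 (0.14) and rpl7l1 (-0.01) did not pass.

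Copies of the same protein could be followed in several pairs. Of the counts of rpl22 and its paralog rpl22l1, rpl22l1 held 29.9% ± 1.23 in DMSO, 29.7% ± 1.14 with testosterone, 27.3% ± 0.240 with calindol and 29.7% ± 0.845 with EGCG (SD, n = 3). From testosterone to calindol rpl22 was higher (0.33, adjusted p = 0.00514), and rpl22l1 did not pass (0.16, adjusted p = 0.179). In the rps27 group rps27.1 was higher (0.27, adjusted p = 0.02), and rps27.2 did not pass (0.17, adjusted p = 0.128). The call of rps27.1 was lost without testosterone library 1 (adjusted p = 0.0508) or calindol library 1 (0.073). It was also lost when only the 6 libraries compared were fitted (0.071). Whether the copies of a pair differ in their change was not tested, and reads that match several copies could be shared between them by the counting.

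The rpl5 copies varied between libraries. rpl5b was at 419, 409 and 431 CPM in DMSO, at 558, 520 and 526 CPM with testosterone, and at 524, 470 and 465 CPM with EGCG. With calindol it was at 675, 586 and 404 CPM, so that library 4 lay below all DMSO libraries and libraries 1 and 2 above all others. rpl5b held 33.2% ± 0.246 of the counts of the rpl5 pair in DMSO, 37.3% ± 2.19 with testosterone and 32.7% ± 5.15 with calindol (SD, n = 3). From DMSO to calindol the log2 difference of rpl5b was 0.40 ± 0.130 (SE; adjusted p = 0.0311). That call was lost without any of DMSO libraries 1, 2 or 4 or calindol libraries 1 or 2 (adjusted p from 0.0685 to 0.146).

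**Figure D3:**
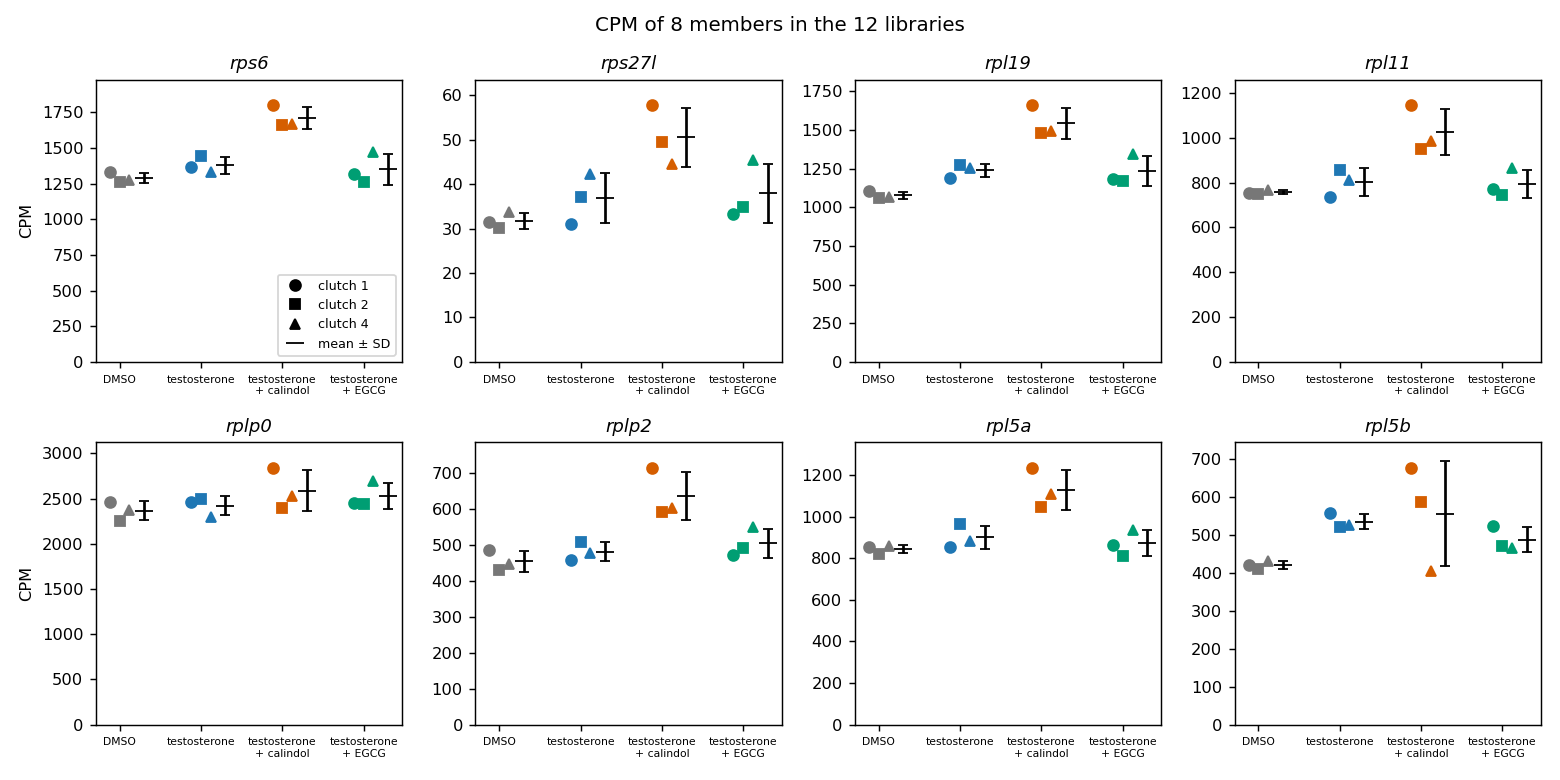
CPM (from 0) of 8 members in the 12 libraries by group; symbols mark the clutch, and bars the mean ± SD of 3 libraries. The calindol libraries are highest for rps6, rpl19, rpl11 and rplp2, overlap the others for rplp0, and spread from 404 to 675 CPM for rpl5b.

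Testosterone alone, compared with DMSO, changed no member beyond the threshold. Of the 70 tested, 0 were higher and 0 lower in the edgeR test, where 2.93% of all tested genes were higher and 3.39% lower. At an unadjusted p under 0.05 edgeR gave 10 higher and 0 lower. DESeq2, run on the 79 members with any count, gave 2 higher and 0 lower after adjustment. The share of all genes was not counted in either setting. The median log2 fold change was 0.10, beside 0.00 over all tested genes, and 67 of 70 members had a positive value. For 28 members all testosterone libraries were above all DMSO libraries and for 1 all were below, beside 13.4% and 13.0% of all tested genes.

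Single members had small values in that comparison. On the log2 scale, rps6 differed by 0.10 ± 0.069, rpl11 0.08 ± 0.083, rps19 0.08 ± 0.079, rps2 0.08 ± 0.077 and rplp0 0.03 ± 0.074 (SE; adjusted p from 0.48 to 0.857). The value for rpl5b was 0.35 ± 0.130 (SE; adjusted p = 0.137), and its 3 testosterone libraries did not overlap with DMSO. It passed when only the 6 libraries compared were fitted (adjusted p = 0.00833), and also without calindol library 4 (0.0126), the library in which rpl5b stood apart. A log2 difference of the size of the family median is close to the SE of a single member, which had a median of 0.0756.

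With testosterone and EGCG few members passed against DMSO or testosterone alone. Against DMSO 1 of 70 members was higher and 0 lower, where 7.69% of all tested genes were higher and 9.33% lower. At an unadjusted p under 0.05 edgeR gave 10 higher and 1 lower. DESeq2, run on the 79 members with any count, gave 10 higher and 0 lower after adjustment. The share of all genes was not counted in either setting. The member that passed was rpl24, whose protein links the large to the small subunit. It was at 764, 720 and 767 CPM in DMSO and at 839, 859 and 917 CPM with EGCG. The groups did not overlap, and the log2 fold change was 0.22 ± 0.061 (SE; adjusted p = 0.0261). The call was lost without any of DMSO libraries 1, 2 or 4 or EGCG libraries 2 or 4 (adjusted p from 0.0548 to 0.110). The family median was 0.11, beside 0.00 over all tested genes, and the count of members called depended on the scaling, from 1 to 10.

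Between EGCG with testosterone and testosterone alone, 0 of 70 members were higher and 0 lower, where 6.05% of all tested genes were higher and 5.59% lower. At an unadjusted p under 0.05 edgeR gave 0 higher and 2 lower, and DESeq2 gave 0 and 0 after adjustment. The median log2 fold change was 0.00, and 58 of 70 members lay within 0.1 of it. rps6 had -0.03 ± 0.069, rpl11 -0.01 ± 0.083 and rplp1 0.02 ± 0.071 (SE). The smallest adjusted p, 0.0694, belonged to rps19bp1 at -0.29 ± 0.098 (SE).

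The EGCG and calindol groups differed across most of the family in the main fit, and less with the gene span trend removed (below). With EGCG in place of calindol, 58 of 70 members were lower and 0 higher, where 22% of all tested genes were lower and 21.1% higher. At an unadjusted p under 0.05 edgeR gave 63 lower and 0 higher, and DESeq2 gave 56 lower and 0 higher after adjustment. The median log2 fold change was -0.28, beside -0.06 over all tested genes. Among those that passed, rpl34 (-0.52), rps19bp1 (-0.43), rps27l (-0.41) and rps18 (-0.40) had some of the largest falls. For rpl34 the value again rests on calindol library 1, without which it was -0.22 (adjusted p = 0.0692). The rpl34 call was also lost without EGCG library 1 (0.0573) or 2 (0.0564). The DESeq2 Wald test (0.0542) and a fit of only the 6 libraries compared (0.0541) lost it too. rps27l lost its call without calindol library 1 (adjusted p = 0.0871), EGCG library 1 (0.0837) or EGCG library 2 (0.0868). rps18, at the head of the small subunit, was at 1169, 1028 and 963 CPM with calindol and at 766, 778 and 858 CPM with EGCG. These groups did not overlap, and the adjusted p was 0.00106. rps6 fell by 0.34 (adjusted p = 0.00117), rpl11 by 0.37 (adjusted p = 0.00242) and rps19 by 0.26 (adjusted p = 0.0149) on the log2 scale. The call of rps19 was lost without EGCG library 2 (adjusted p = 0.0593) and when only the 6 libraries compared were fitted (0.0622). rps2 was at -0.20 (adjusted p = 0.0483), and with clutch as a block its adjusted p was 0.0687. It also lost the call without DMSO library 1, 2 or 4, calindol library 1, or EGCG library 1 or 2 (adjusted p from 0.061 to 0.149). The rps2 call was lost under other scalings too: DESeq2 size factors (0.0793), library totals without TMM (0.0886) and TMM factors computed without the members (0.0841). The DESeq2 Wald test (0.0649) and a fit of only the 6 libraries compared (0.162) also lost it. rplp0 (-0.03) and rpl3 (-0.18) did not pass. With the gene span trend removed, as described next, 20 of 70 members were lower (median -0.14).

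Change also varied with gene span. Span is the length from the start to the end of a gene, introns included, taken from RefSeq annotation of the GRCz12tu assembly, which is not the GRCz11 build named for these data. The tested members had a median span of 5427 bases, and all tested genes with a matched span 19535 bases. The other tested genes with a matched span were split by span into 4 bins of near equal size. The bin of shortest genes had a median log2 fold change of 0.10 from DMSO to calindol, and the bin of longest genes -0.18. From calindol to EGCG these medians were -0.19 and 0.23. With the trend over span removed, 57 members were higher with calindol than with DMSO, with a median log2 fold change of 0.30. Likewise 38 were higher with calindol than with testosterone (median 0.20), and 20 were lower with EGCG than with calindol (median -0.14). Over all tested genes the medians of these comparisons, with the trend removed, were 0.00, 0.01 and -0.04. The share of all genes called was not counted there, so these member counts have no background beside them. Of the named members, rpl3 and rpl5b lost their calls from DMSO to calindol in that setting. From testosterone to calindol rps2, rps8a, rps19, rps27.1 and rps27l lost theirs, and from calindol to EGCG rps2, rps19, rps27l and rplp1. The part of span in the remaining differences was not tested.

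**Figure D4:**
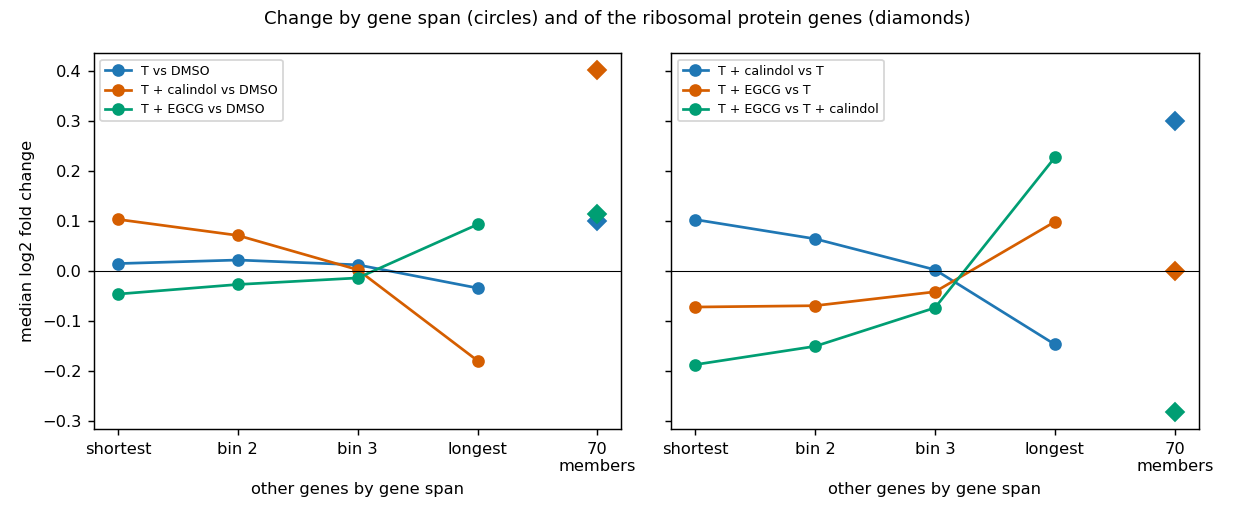
Median log2 fold change of other genes in 4 bins by gene span (circles) and of the 70 ribosomal protein genes (diamonds), for the comparisons with DMSO (left) and between exposures (right), where T is testosterone. From DMSO to calindol the shortest bin is at 0.10, the longest at -0.18 and the ribosomal protein genes at 0.40.

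Tissue markers also differed between groups. The erythroid markers, of which 3 of 4 were tested, took 0.142% to 0.167% of the counts in DMSO, 0.190% to 0.248% with testosterone, 0.240% to 0.282% with calindol and 0.234% to 0.255% with EGCG. The neuronal markers took 0.119% to 0.123% in DMSO, 0.107% to 0.128% with testosterone, 0.0743% to 0.108% with calindol and 0.137% to 0.147% with EGCG. The EGCG libraries were highest for the neuronal markers, and the testosterone range overlapped those of DMSO and calindol. From DMSO to calindol 2 of 4 neuronal markers were lower, elavl3 (-0.80) and gap43 (-0.58), and 2 of 3 tested lens markers were lower. Of all tested genes, 15.9% were lower in that comparison. From calindol to EGCG all 3 tested muscle markers (median -0.46) and all 3 tested heart markers (median -0.54) were lower, where 22% of all tested genes were lower. The hatching gland markers took 0.000553% to 0.00128% of the counts in DMSO, 0.00309% to 0.00509% with testosterone, 0.000469% to 0.000756% with calindol and 0.00553% to 0.00864% with EGCG. The hatching enzyme gene he1.1 was higher with testosterone (2.74) and EGCG (3.70) than with DMSO, and lower with calindol than with testosterone (-3.02). The part of cell composition in the ribosomal protein differences was not tested.

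Ribosomal protein genes that the symbol rule does not take in were also higher with calindol. rpsa encodes a small subunit protein, and rack1 a scaffold bound to the small subunit. From DMSO to calindol both were higher, rpsa by 0.28 (adjusted p = 0.0122) and rack1 by 0.28 (adjusted p = 0.00754). rps20, which was left out because its biotype is a processed transcript, was at 1009 ± 17.0 CPM in DMSO, 1128 ± 58.2 with testosterone, 1415 ± 140 with calindol and 1134 ± 85.7 with EGCG (SD, n = 3). Its log2 fold change from DMSO to calindol was 0.49 (adjusted p = 0.00037).

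Genes for ribosome assembly had more higher calls against DMSO with testosterone alone than with calindol or EGCG. They encode the nucleolar factors and helicases that process ribosomal RNA and load the proteins on it. Of 80 tested, 22 were higher (27.5%, beside 2.93% of all tested genes) and 0 lower with testosterone against DMSO (median 0.23), among them gnl3l (1.31), ddx18 (0.42) and gnl2 (0.42). With calindol against DMSO 10 were higher (12.5%, near the 11.5% of all tested genes) and 4 lower (5.0%, beside 15.9%), with a median of 0.11. Those higher included nop53 (0.66), pno1 (0.42) and ddx21 (0.45). With EGCG against DMSO 9 were higher (11.25%, beside 7.69%) and 3 lower (3.75%, beside 9.33%), with a median of 0.06. From testosterone to calindol 3 were higher (3.75%, beside 11%) and 19 lower (23.8%, beside 14.8%), with a median of -0.14. The lower genes included mdn1 (-0.51), ncl (-0.39) and nop58 (-0.48), which encode an assembly ATPase, nucleolin and a core protein of the particles that methylate ribosomal RNA. From testosterone to EGCG 0 were higher and 12 lower (15.0%, beside 5.59%), with a median of -0.17. ubtf, which drives ribosomal RNA transcription by RNA polymerase I, was higher with testosterone than with DMSO (0.35, adjusted p = 0.0072) and lower with calindol than with testosterone (-0.50, adjusted p = 0.000165).

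Other genes of translation were mixed from DMSO to calindol, where 11.5% of all tested genes were higher and 15.9% lower. Among 13 tested elongation factors and further TOP genes, 5 were higher (38.5%) and 2 lower (15.4%). Those higher included tpt1 (0.55), eef1da (0.47) and eef1g (0.46), which encode the TOP protein Tctp and subunits of the elongation factor that recharges eEF1A. Of 39 initiation factor genes 10 were higher (25.6%) and 5 lower (12.8%). The 3 with the smallest p were among the 5 that were lower: eif4g1a (-0.50), eif4g3a (-0.66) and eif4h (-0.45), which act in cap-dependent initiation. Among 16 regulators of mTOR and MYC signalling 3 were higher (18.8%) and 4 lower (25%). larp1, which binds TOP messenger RNAs, fell by 0.65 (adjusted p = 7.68e-05). eif4ebp3l, an inhibitor of cap-dependent initiation, rose by 0.91 (adjusted p = 2.34e-05). Calls in this list were not confined to calindol. From DMSO to EGCG 6 of the 16 regulators were higher (37.5%, beside 7.69% of all tested genes) and 1 lower (6.25%, beside 9.33%). From testosterone to EGCG 3 were higher (18.8%, beside 6.05%) and 0 lower (beside 5.59%).

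Few genes of the mitochondrial ribosome passed from DMSO to calindol. Of 63 tested, 2 were higher (3.17%, beside 11.5% of all tested genes) and 0 lower (beside 15.9%), with a median log2 fold change of 0.07. From DMSO to EGCG 2 were higher (3.17%, beside 7.69%) and 6 lower (9.52%, beside 9.33%). From calindol to EGCG 2 were higher (3.17%, beside 21.1%) and 14 lower (22.2%, beside 22%). Nuclear genes of the respiratory chain and ATP synthase had most calls where calindol was set against another exposure. Of 70 tested, 38 were higher (54.3%, beside 11%) and 0 lower from testosterone to calindol (median 0.26), and 49 were lower (70%, beside 22%) and 0 higher from calindol to EGCG (median -0.26). From DMSO to calindol 14 were higher (20%, beside 11.5%) and 3 lower (4.29%, beside 15.9%), with a median of 0.13. From DMSO to EGCG 0 were higher and 12 lower (17.1%, beside 9.33%), and from testosterone to EGCG 0 were higher and 2 lower (2.86%, beside 5.59%).

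In the integrated stress response, which lowers initiation through eIF2, 7 of 9 genes were higher (77.8%, beside 11.5% of all tested genes) and 0 lower from DMSO to calindol (median 0.44), among them ppp1r15a (0.88) and psat1 (0.69). From testosterone to calindol 3 were higher (33.3%, beside 11%) and 0 lower. From DMSO to EGCG 2 were higher (22.2%, beside 7.69%) and 0 lower. From DMSO to testosterone 0 were higher (beside 2.93%) and 0 lower, with a median of 0.25. Of 16 proliferation genes 0 were higher and 3 lower from DMSO to calindol (18.8%, near the 15.9% of all tested genes). From DMSO to EGCG 6 were lower (37.5%, beside 9.33%), and from testosterone to calindol 6 were lower (37.5%, beside 14.8%), with 0 higher in both.

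**Figure D5:**
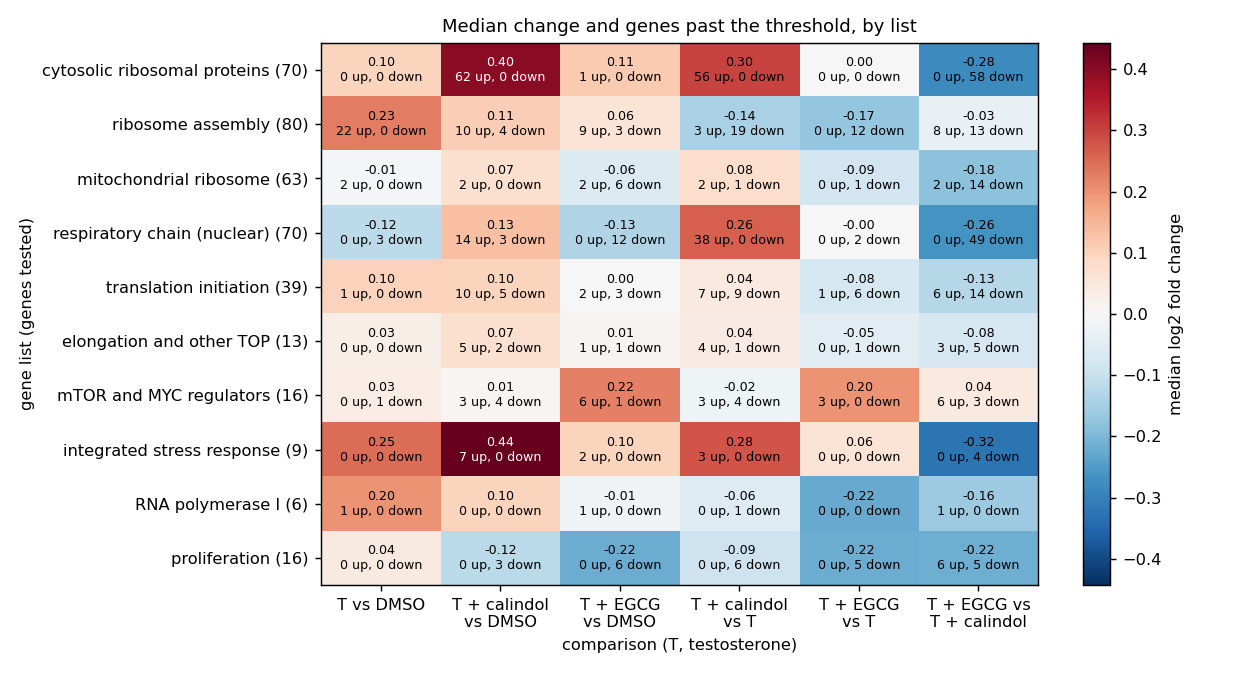
Median log2 fold change (colour and upper number) and genes higher and lower at an adjusted p under 0.05 (lower line) for the ribosomal protein genes and 9 related gene lists in 6 comparisons, where T is testosterone. The ribosomal protein row has its highest median, 0.40, from DMSO to calindol, where ribosome assembly is at 0.11 and the mitochondrial ribosome at 0.07.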

How the data were processed

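The deposited values are raw gene counts, per the file headers. The submitters' processing notes name Trim Galore 0.6.10, STAR 2.7.1a, featureCounts and the GRCz11 build. Directional poly(A) libraries were made, per the labels' protocols. Whether counting used strand, or multimapping reads, is not given in the sources used here. Multimapping reads can shift counts between paralogs.

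Counts were tested with edgeR 4.0.16 (R 4.3.3): filterByExpr with a minimum count of 10, TMM scaling, and 1 quasi-likelihood fit of 12 libraries with 4 group means (degrees of freedom: 8 residual, 6.68 prior). Biological variation between libraries was 13.1% (common coefficient). The 6 comparisons were two-sided with Benjamini-Hochberg adjustment over 20237 genes. SE is the absolute log2 fold change divided by the square root of F. CPM uses TMM-scaled totals, and shares use unscaled totals with 95% Wilson intervals, which cover counting error only. The fit was also run on simulated counts in which randomly drawn genes were changed in both directions. That run does not bear on a family of genes that moves together. DESeq2 1.42.0 was an alternative.

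The labels number the libraries by clutch, and equal numbers were taken as the same clutch. After subtraction of group means, same-clutch libraries had a mean correlation across genes of 0.012 (18 pairs), other libraries -0.0058 (36 pairs). The subtraction ties these means to each other, so the value for other libraries is not an independent baseline. The fit has no clutch term, and a clutch block was an alternative.

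Members and lists were chosen with earlier results of these data known, so list counts are descriptions. Named members are up to 5 with the largest change per direction and comparison, the 3 with most counts, rpl5a, rpl5b, rpl11, rps6, rps19, rplp0, rplp1, rplp2, paralogs whose calls differ, and non-subunits. The members that did not pass, those with few counts, and rps20 were named after their values were seen. From each list up to 3 genes with the smallest p were eligible. Paralog pairs were limited to copies of the same protein. Gene span was matched by symbol for 16934 of 20237 genes (83.7%) and all 70 tested members. Some genes are not reported here. No sequences are given.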

Additional observations from a re-analysis of the deposited data

How the results depend on the processing

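Of the alternative values for single named members, 0 reversed a call. Values near 0 that were not called could change sign. Leaving out each library in turn, the family median from testosterone to EGCG, 0.00 in the main fit, ran from -0.055 to 0.040. For rps6 from DMSO to EGCG, 0.07 in the main fit, the values ran from -0.0015 to 0.11. Members higher from DMSO to calindol then numbered 58 to 62, and from testosterone to calindol 46 to 57. Members lower from calindol to EGCG numbered 45 to 61. From DMSO to EGCG, members called higher ranged from 0 to 4, and lower from 0 to 1. From DMSO to testosterone 0 to 1 were higher, and 0 to 1 were lower from testosterone to calindol and from testosterone to EGCG. With clutch as a replicate block the counts were 62 (DMSO to calindol), 53 (testosterone to calindol), 57 (calindol to EGCG) and 1 (DMSO to EGCG), and of the named members rps2 lost 2 calls, given above with its adjusted p.

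From DMSO to EGCG, where 1 member was higher, DESeq2 size factors gave 6, library totals without TMM 8, TMM factors computed without the members 10, the DESeq2 Wald test 10, removal of the gene span trend 10, a fit of only the 6 libraries compared 7 higher and 2 lower, and an adjusted p under 0.01 gave 0. From DMSO to testosterone the DESeq2 Wald test gave 2 higher and the fit of 6 libraries 1. From testosterone to calindol an adjusted p under 0.01 left 37. With the gene span trend removed, members lower from calindol to EGCG numbered 20, and the median log2 fold changes were 0.30 (DMSO to calindol), 0.20 (testosterone to calindol) and -0.14 (calindol to EGCG). Without the 100 most abundant other genes in the total, the family share was 6.74% in DMSO, 7.17% with testosterone, 8.78% with calindol and 7.17% with EGCG. The cause of these shifts was not tested, and the share of all genes called was not counted in any alternative setting. For single named members there were 2000 alternative values, of which 63 lost a call and 17 gained one. Only values called in the main fit could lose a call, and many were not called there. The 2000 are therefore not the base for a rate of loss.

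Members near 0 counts limit the family share to the genes listed with counts. With 3 libraries per group, the median SE of a member, 0.0756 on the log2 scale, limits the detection of changes of the size seen with testosterone alone. Gene span includes introns and comes from another assembly, so it stands only roughly for transcript length.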
